A study of Mus musculus with 9 samples.

Results

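The 36 genes described here drive the cell division cycle: 21 act mainly in mitosis and 15 in DNA replication. They were taken by name from a list that was set with earlier results of these data known. All 36 had a row among the 34092 gene rows of the count table, and all 36 were among the 14424 genes with enough reads to be tested. RNA came from regulatory T cells, a suppressive class of T cell defined by Foxp3, that were sorted from mice at rest and not cultured. Controls have the genotype Foxp3gfp, with a green fluorescent reporter in Foxp3 (called WT). The other group has Foxp3deltaCNS2-gfp, the same reporter on an allele without the noncoding element CNS2 of Foxp3 (called CNS2KO). No group without the reporter was compared, and the sources used here do not give strain, age, sort gate or any pooling of mice. The labels list 6 WT and 3 CNS2KO samples, but 2 columns share the number 407 and their genotype could not be told, so 5 WT libraries (398, 402, 405, 1032 and 1037) and 2 CNS2KO libraries (399 and 408) were compared. Nothing says that the numbers are separate animals, so p-values measure only the spread between these libraries, which may be technical.

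A cell that leaves rest first loads the Mcm2 to Mcm7 helicase onto replication origins with the help of Cdc6 and Cdt1, and cyclin E with its kinase then starts DNA synthesis. Cyclin A and cyclin B with the kinase Cdk1 bring the cell into mitosis, where Plk1 and the Aurora kinases build the spindle and Cdc20 with the anaphase-promoting complex ends it. Genes of the replication group are known targets of E2F factors through sites of the TTTCCCGC kind. Genes of the mitosis group are known to be held off in resting cells through a short element called the CHR, often near CCAAT boxes bound by NF-Y. In unstimulated lymphocytes, mitosis transcripts come mostly from the few cells that are dividing. In bulk RNA, fewer dividing cells and less RNA per cell cannot be told apart.

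The promoters of mitosis and S phase genes differ in the short runs of letters that they hold. RefSeq windows from 250 bases before to 50 bases after the start site (GRCm38.p6) were matched by symbol for 29 of the 36 genes: 16 mitosis and 13 S phase genes. Tpx2, Aurkb, Stmn1, Ccna2, Kif20a, Mcm4 and Ccne2 were not matched. The CHR letters TTTGAA, read on both strands, were in the windows of 11 of 16 mitosis genes (68.8%), of 1 of 13 S phase genes (7.69%), of 14.9% of the 8725 tested genes with a window and of 20.2% of all 27025 genes of the table. CCAAT was in 14 of 16 mitosis genes (87.5%) and 8 of 13 S phase genes (61.5%), against 43.4% of tested genes and 41.1% of all genes. Every mitosis gene with CHR letters also had CCAAT (11 of 16), a pair found in 6.1% of tested genes and 7.97% of all genes. E2F letters (TTTCCCGC, TTTCGCGC, TTTGCCGC or TTTGGCGC on either strand) were in 6 of 13 S phase genes (46.2%), namely Mcm3, Mcm5, Mcm6, Mcm7, Cdc6 and Cdt1, and in 1 of 16 mitosis genes (6.25%), Cdk1, against 4.72% of tested genes and 2.6% of all genes. A match is a run of letters and not a measured binding site. TTTGAA was the only run searched for the CHR, so a gene without it, such as Ccnb1, may still hold a CHR of other letters. Of Mcm7, 2 windows were searched.

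The 250 bases before the start site are printed for 4 genes of each group, in the direction of the gene, to show how the letters lie. Capitals mark CHR, CCAAT and E2F letters on either strand, so ATTGG is CCAAT and TTCAAA is the CHR on the opposite strand. The mitosis genes are Cdk1, the mitotic kinase (chr10:69352913-69353162, minus strand), Ccnb1, cyclin B1 (chr13:100786487-100786736, minus strand), Top2a, the topoisomerase that untangles sister chromosomes (chr11:99024190-99024439, minus strand), and Mki67, which encodes the proliferation marker Ki-67 (chr7:135716380-135716629, minus strand).
Cdk1: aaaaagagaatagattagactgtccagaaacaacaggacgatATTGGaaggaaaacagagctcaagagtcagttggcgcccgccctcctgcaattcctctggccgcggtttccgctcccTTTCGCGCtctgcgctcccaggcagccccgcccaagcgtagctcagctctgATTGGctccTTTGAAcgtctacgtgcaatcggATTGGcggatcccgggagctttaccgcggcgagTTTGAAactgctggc
Ccnb1: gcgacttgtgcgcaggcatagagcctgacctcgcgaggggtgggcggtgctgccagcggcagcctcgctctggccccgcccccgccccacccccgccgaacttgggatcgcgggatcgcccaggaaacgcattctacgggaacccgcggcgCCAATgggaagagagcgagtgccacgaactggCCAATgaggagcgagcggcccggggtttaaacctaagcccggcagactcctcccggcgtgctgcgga
Top2a: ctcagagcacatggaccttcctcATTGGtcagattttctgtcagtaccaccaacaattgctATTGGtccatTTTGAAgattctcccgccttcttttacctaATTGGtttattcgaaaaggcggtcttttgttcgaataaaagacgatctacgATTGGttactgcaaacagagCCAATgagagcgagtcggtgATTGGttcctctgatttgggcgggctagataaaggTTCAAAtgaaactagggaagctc
Mki67: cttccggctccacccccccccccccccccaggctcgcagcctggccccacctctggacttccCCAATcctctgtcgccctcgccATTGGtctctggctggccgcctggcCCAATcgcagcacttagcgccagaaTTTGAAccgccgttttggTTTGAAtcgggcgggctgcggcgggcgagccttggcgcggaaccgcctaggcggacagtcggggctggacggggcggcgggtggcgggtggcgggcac
Cdk1, Top2a and Mki67 each had 2 runs of CHR letters in this stretch, and Top2a had 6 runs of CCAAT. Ccnb1 had 2 runs of CCAAT. Cdk1 was the only one of the 4 with E2F letters.

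The S phase genes are the helicase subunits Mcm5 (chr8:75109259-75109508, plus strand) and Mcm6 (chr1:128359706-128359955, minus strand), the helicase loader Cdc6 (chr11:98907901-98908150, plus strand) and Pcna, the sliding clamp of the replication fork (chr2:132253181-132253430, minus strand).
Mcm5: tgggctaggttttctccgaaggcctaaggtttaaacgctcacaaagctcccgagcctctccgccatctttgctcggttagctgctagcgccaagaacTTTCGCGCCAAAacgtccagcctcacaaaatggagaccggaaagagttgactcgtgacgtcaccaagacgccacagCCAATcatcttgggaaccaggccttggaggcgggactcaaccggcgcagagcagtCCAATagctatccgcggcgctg
Mcm6: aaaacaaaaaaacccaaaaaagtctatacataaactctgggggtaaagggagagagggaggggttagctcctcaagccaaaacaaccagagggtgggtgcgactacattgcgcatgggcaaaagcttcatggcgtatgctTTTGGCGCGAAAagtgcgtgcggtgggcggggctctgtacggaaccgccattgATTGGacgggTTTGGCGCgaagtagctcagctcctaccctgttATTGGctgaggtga
Cdc6: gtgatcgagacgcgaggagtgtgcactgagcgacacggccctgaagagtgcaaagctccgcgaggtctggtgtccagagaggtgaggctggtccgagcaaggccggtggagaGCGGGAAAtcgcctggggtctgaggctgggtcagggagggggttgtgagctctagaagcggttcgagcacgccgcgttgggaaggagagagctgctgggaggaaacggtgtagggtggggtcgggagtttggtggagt
Pcna: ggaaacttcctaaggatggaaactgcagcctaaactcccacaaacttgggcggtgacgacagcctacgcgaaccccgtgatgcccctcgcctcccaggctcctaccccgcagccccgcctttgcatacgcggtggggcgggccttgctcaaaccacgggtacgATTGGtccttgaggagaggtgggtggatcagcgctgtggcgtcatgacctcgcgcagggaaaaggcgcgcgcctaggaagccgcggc
Mcm6 had 3 runs of E2F letters and Mcm5 had 2, and in both genes a pair on opposite strands overlaps into a longer capital run. Cdc6 had 1 run, on the opposite strand. Pcna had 1 run of CCAAT.

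Reads on genes ranged from 16557424 (WT 402) to 21836578 (CNS2KO 399) per library, so a floor of 3 reads stood at 0.142 to 0.182 CPM (reads scaled to a common library total, with TMM factors). Markers of regulatory T cells were read in every library: Foxp3, Il2ra, Ctla4, Ikzf2, Cd4 and Cd3e summed to 4499 to 5335 CPM in WT, 4650 in CNS2KO 399 and 5063 in CNS2KO 408. Markers of immature thymocytes summed to 104 to 132 CPM in WT, 106 and 97.7 in CNS2KO, mostly from Cd1d1, while Rag1, Rag2 and Ptcra had 0 reads in all 7 libraries. The 8 measured erythroid markers summed to 6.84 to 27.6 CPM in WT, 156 in CNS2KO 399 and 31.5 in CNS2KO 408. The 8 B cell markers summed to 1065 to 1364 CPM in WT, 1157 and 981 in CNS2KO, mostly Ighm. The lists of 4 plasma cell, 8 myeloid and 7 CD8 and NK cell markers summed to 19.1 to 68.2, 65.4 to 90.4 and 44.9 to 59.15 CPM in WT, 46.0, 80.2 and 54.3 in CNS2KO 399, and 57.5, 96.5 and 49.6 in CNS2KO 408. Sdc1 had under 3 reads in every library, and Elane and Ncr1 had 0.

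Mitosis transcripts did not separate the genotypes. edgeR's quasi-likelihood test called 0 of 21 at an FDR of 0.05, where 0% of all 14424 tested genes were called, and 0 of 21 had an unadjusted p under 0.05, against 2.5% of all tested genes (361). DESeq2 and limma-voom also called 0. At an unadjusted p under 0.05 they had 0 and 2 of the 36 genes (Bub1 and Tpx2). Over all genes they had 496 of 14370 and 614 of 14424 tested. Log2 fold changes, CNS2KO minus WT, were positive in 11 and negative in 10, from -1.11 to 1.20, and their median was 0.01 (all tested genes -0.03). The median was 0.28 without CNS2KO 399 and -0.34 without CNS2KO 408 (all tested genes -0.04 and -0.12), fits in which the lone CNS2KO library is assumed to vary like the WT libraries. The column names of WT 1032 and 1037 start with R and those of all other used libraries with YI, and what this stands for is not given. Both CNS2KO libraries are of the YI kind. Against WT numbers of 3 digits only, the median of the mitosis genes was 0.34.

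**Figure D1:**
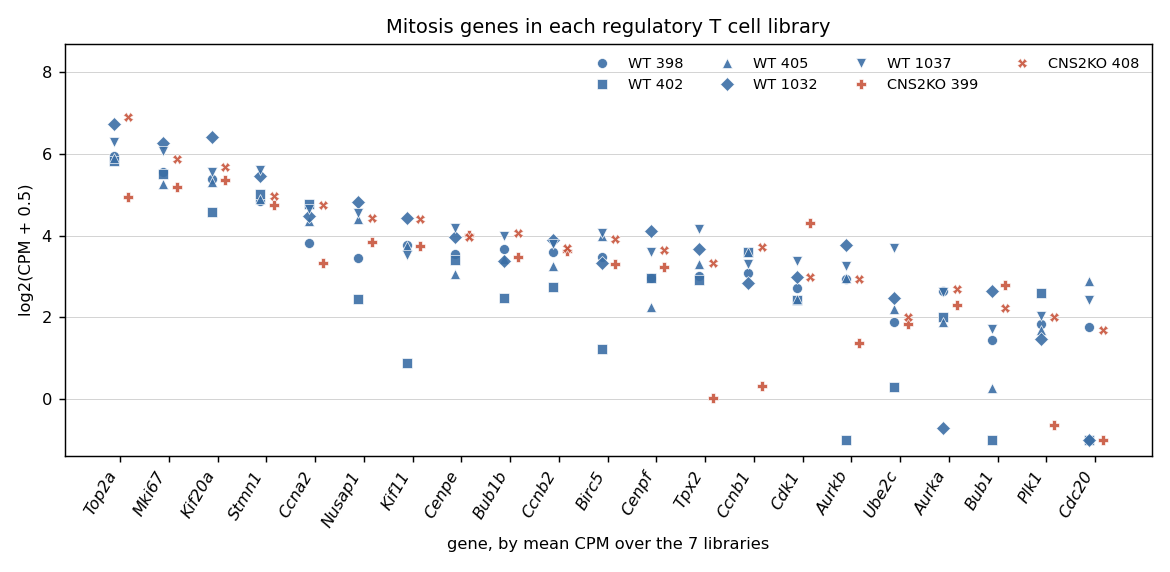
Level of each of the 21 mitosis genes, as log2(CPM + 0.5), in the 5 WT libraries (blue) and 2 CNS2KO libraries (red), with 1 marker shape per library and genes ordered by mean CPM. CNS2KO 399 lies low for Top2a, Ccna2, Tpx2, Ccnb1 and Plk1 and high for Cdk1, and WT 402 lies low for Nusap1, Kif11, Birc5, Aurkb and Bub1.

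The 2 CNS2KO libraries went apart for Cdk1, Ccnb1 and Ccna2 and lay close together for Ccnb2. Cdk1 stood at 6.05, 4.86, 4.99, 7.504 and 9.88 CPM in WT 398, 402, 405, 1032 and 1037 and at 19.2 and 7.42 CPM in CNS2KO 399 and 408. CNS2KO 399 was thus above every WT library, with 407 reads, and CNS2KO 408 inside the WT range (log2 fold change 1.001, SE 0.47, 95% interval -0.03 to 2.03, edgeR's unadjusted p = 0.0558, adjusted p = 0.9999). Without CNS2KO 399 the log2 fold change of Cdk1 was 0.16. Without CNS2KO 408 the log2 fold change of Cdk1 was 1.52. Ccnb1 had the opposite order: 8.07, 11.6, 11.7, 6.64 and 9.36 CPM in WT, 0.756 CPM (16 reads) in CNS2KO 399 and 12.6 CPM (264 reads) in CNS2KO 408. Its 2 CNS2KO libraries lay below and above every WT library, and the log2 fold change between them and WT was -0.50 (SE 0.75). Ccna2, cyclin A2, which acts in S phase and at mitotic entry, stood at 13.5, 26.7, 20.1, 22.0 and 24.7 CPM in WT and at 9.50 and 26.3 CPM in CNS2KO 399 and 408. CNS2KO 399 was again below every WT library, and the log2 fold change was -0.26 (SE 0.40). Ccnb2, cyclin B2, stood at 6.19 to 14.3 CPM in WT (median 11.7) and at 11.8 and 12.5 CPM in CNS2KO, inside the WT range. The choice to give Cdk1 and Ccnb1 in full was made with their values known.

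The kinases and checkpoint genes had few reads and wide spreads. Plk1, the polo-like kinase, had 42 to 91 reads in each WT library (2.27 to 5.53 CPM), 3 reads in CNS2KO 399 and 74 in CNS2KO 408 (3.54 CPM). Aurka, the spindle pole kinase, had 2 reads in WT 1032, 58 to 106 in the other 4 WT libraries, and 94 and 126 reads in CNS2KO. Aurkb, the kinase of the chromosomal passenger complex, had 0 reads in WT 402, 132 to 242 in the other 4 WT libraries, and 44 and 149 in CNS2KO. Single libraries of either genotype thus fell to a few reads for 1 gene while the rest of the libraries held many more. Birc5, the Survivin subunit of that complex, stood at 1.82 to 16.3 CPM in WT (median 10.6) and at 9.41 and 14.7 CPM in CNS2KO. Bub1, a checkpoint kinase, had the most positive fold change of the group: it stood at 2.23, 0, 0.713, 5.72 and 2.81 CPM in WT 398, 402, 405, 1032 and 1037 and at 6.43 and 4.16 CPM in CNS2KO 399 and 408. CNS2KO 408 lay inside the WT range, and the log2 fold change of 1.20 had an SE of 1.18. Bub1b, which encodes BubR1, stood at 5.10 to 15.3 CPM in WT (median 10.3) and at 10.6 and 16.2 CPM in CNS2KO (log2 fold change 0.34, SE 0.43).

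The partners of the anaphase-promoting complex gave no estimate of use. Cdc20, its activator, had 53, 0, 137, 0 and 83 reads in WT 398, 402, 405, 1032 and 1037 and 0 and 57 reads in CNS2KO 399 and 408. Its log2 fold change was the most negative of the group, -1.11, with a 95% interval from -5.48 to 3.27. A count of 0 allows up to 0.182 CPM in WT 402, 0.162 in WT 1032 and 0.142 in CNS2KO 399, counting error only. Ube2c, its ubiquitin-conjugating enzyme, stood at 0.729 to 12.5 CPM in WT (median 4.12) and at 3.07 and 3.49 CPM in CNS2KO.

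Spindle, kinetochore and chromosome genes had the most reads of the mitosis group. Top2a stood at 61.7, 56.4, 59.7, 107 and 78.5 CPM in WT 398, 402, 405, 1032 and 1037 and at 30.2 and 119.5 CPM in CNS2KO 399 and 408. The 2 CNS2KO libraries lay on either side of the WT range, and the mean difference was near 0 (log2 fold change 0.04, SE 0.42), -1.27 without CNS2KO 408 and 0.72 without CNS2KO 399. Mki67 stood at 46.4, 44.9, 38.2, 76.1 and 66.6 CPM in WT and at 35.9 and 58.5 CPM in CNS2KO (log2 fold change -0.20, SE 0.31). CNS2KO 399 was just under the lowest WT library. CNS2KO 408 was inside the range, above WT 398, 402 and 405 and below WT 1032 and 1037. Stmn1, the microtubule-destabilising protein stathmin, stood at 28.6, 31.8, 29.1, 43.8 and 48.2 CPM in WT and at 26.3 and 30.6 CPM in CNS2KO (log2 fold change -0.35, SE 0.28). Its 2 CNS2KO values were close to the 3 lower WT libraries.

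Kif20a, a kinesin of cytokinesis, stood at 41.3, 23.6, 39.4, 84.6 and 46.5 CPM in WT and at 41.0 and 51.3 CPM in CNS2KO, both inside the WT range (log2 fold change -0.03, SE 0.39). In GENCODE M21, 1271 exon bases of Kif20a overlap Cdc23 on the opposite strand, whose mean level was 173 CPM. Strand use in counting was not given, and ambiguous reads have a summary row apart from the genes. Reads on the shared bases may thus be mixed between the 2 genes or lost to both. The same limit holds for Ube2c, Ccna2, Ccne2, Mcm7, Nusap1, Plk1, Tk1 and Cdc20, which share 53 to 592 exon bases with a gene on the opposite strand. Nusap1, a spindle-associated protein, stood at 10.5, 4.98, 20.9, 27.8 and 23.2 CPM in WT and at 13.9 and 21.2 CPM in CNS2KO (log2 fold change 0.01, SE 0.54). Tpx2, a spindle assembly factor that activates Aurora A, stood at 7.04 to 17.3 CPM in WT (median 9.31), at 9.57 CPM in CNS2KO 408 and at 0.520 CPM, 11 reads, in CNS2KO 399. The spindle motor Kif11 stood at 1.34 to 21.2 CPM in WT (median 12.8) and at 13.0 and 20.9 CPM in CNS2KO. The kinetochore genes Cenpe and Cenpf stood at 7.84 to 17.7 and 4.28 to 16.7 CPM in WT, at 15.6 and 8.94 CPM in CNS2KO 399 and at 15.1 and 12.0 CPM in CNS2KO 408. Neither CNS2KO library left the WT range for Kif11, Cenpe or Cenpf.

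S phase transcripts did not separate the genotypes either, and here the intervals were narrower. edgeR's test called 0 of 15 (0% of all tested genes), 0 of 15 had an unadjusted p under 0.05 (2.5% of all), and fold changes were positive in 8 and negative in 7, from -0.49 to 0.38, with a median of 0.00 (all tested genes -0.03). The median was 0.01 without CNS2KO 399 and -0.06 without CNS2KO 408. The 95% interval of the log2 fold change lay between -1 and 1 for 11 of 15 S phase genes and for 4 of 21 mitosis genes. The 4 mitosis genes are Kif20a, Stmn1, Top2a and Mki67. For these 15 genes the fitted interval does not reach a doubling or a halving between these libraries, and for the other 21 genes it does. With 2 CNS2KO libraries it sets no firm bound on the genotype difference. Top2a, 1 of the 15, stood at 30.2 CPM in CNS2KO 399 and at 119.5 CPM in CNS2KO 408.

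**Figure D2:**
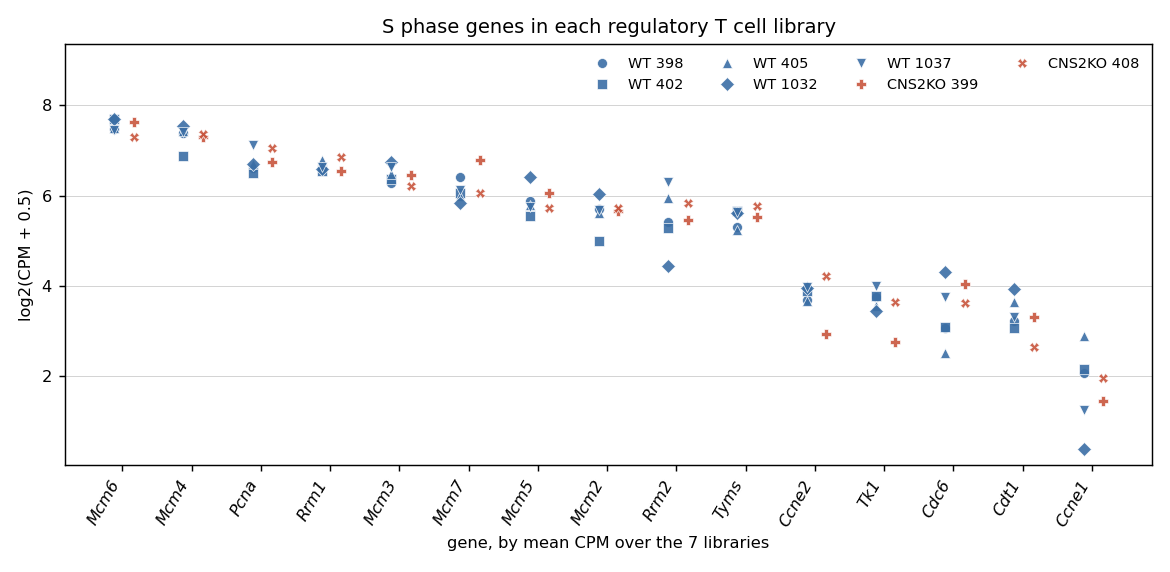
Level of each of the 15 S phase genes, as log2(CPM + 0.5), in the 5 WT libraries (blue) and 2 CNS2KO libraries (red), with 1 marker shape per library and genes ordered by mean CPM. The libraries lie close together for Mcm6, Rrm1 and Tyms and wider apart for Rrm2, Cdc6 and Ccne1.

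The MCM subunits form 1 hexamer, and the WT libraries spread by 1.20 times (Mcm6) to 2.08 times (Mcm2), highest over lowest, against a median of 1.96 over the 12392 tested genes with that ratio. Mcm6 stood at 176, 206, 181, 209 and 174 CPM in WT 398, 402, 405, 1032 and 1037 and at 197 and 156 CPM in CNS2KO 399 and 408 (log2 fold change -0.10, SE 0.17, 95% interval -0.48 to 0.28). CNS2KO 408 was below every WT library and CNS2KO 399 inside the range. Mcm4 stood at 167, 116, 171, 186 and 170.2 CPM in WT and at 156 and 163 CPM in CNS2KO (log2 fold change -0.02, SE 0.20), and neither CNS2KO library left the WT range. Mcm3 stood at 77.3, 82.6, 88.2, 107 and 98.3 CPM in WT and at 87.7 and 74.0 CPM in CNS2KO (log2 fold change -0.17, SE 0.20). CNS2KO 408 was the lowest of the 7 libraries. Mcm7 stood at 84.4, 66.3, 62.8, 56.5 and 68.9 CPM in WT and at 111 and 66.2 CPM in CNS2KO, the most positive fold change of the group (0.38, SE 0.24, 95% interval -0.14 to 0.91). It rested on CNS2KO 399: without that library the value was -0.03. Mcm2 and Mcm5 stood at 31.3 to 65.1 and 46.3 to 84.1 CPM in WT, at 50.1 and 66.2 CPM in CNS2KO 399 and at 52.1 and 52.8 CPM in CNS2KO 408, inside the WT ranges.

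Per kilobase of exon (GENCODE M21, protein-coding transcripts of the basic set; the counting annotation was not given), the order of the subunits in WT was Mcm4 at 45.2 ± 7.42 CPM per kb (SD, n = 5), Mcm6 at 43.3 ± 3.84, Mcm3 at 29.9 ± 3.97, Mcm7 at 22.9 ± 3.51, Mcm5 at 17.2 ± 4.20 and Mcm2 at 14.7 ± 3.58. Mcm4 and Mcm6, and Mcm5 and Mcm2, differed by less than their spread, whereas the WT ranges of Mcm6 (39.8 to 47.7) and Mcm3 (25.5 to 35.4) did not overlap. Pcna was the highest of all 36 genes in WT mean on this scale, at 70.1 ± 12.1 CPM per kb, while Bub1 (0.671 ± 0.650) and Cenpf (0.850 ± 0.436), the lowest WT means, differed by less than their spread. In length-scaled level the helicase loaders stood well under the helicase: Cdt1 at 4.83 ± 1.29 and Cdc6 at 2.23 ± 1.17 CPM per kb.

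Of the loaders, Cdt1 had the most negative fold change of the S phase genes. It stood at 8.78, 7.89, 12.0, 14.8 and 9.36 CPM in WT and at 9.36 and 5.69 CPM in CNS2KO 399 and 408 (log2 fold change -0.49, SE 0.43), with CNS2KO 399 inside the WT range and CNS2KO 408 below it. Cdc6 stood at 5.19 to 19.4 CPM in WT (median 7.96) and at 16.0 and 11.8 CPM in CNS2KO, inside the WT range (log2 fold change 0.38, SE 0.48). Its log2 fold change was 0.99 against WT numbers of 3 digits only and also with a term for 1032 and 1037. In those 2 fits Cdc6 and Cdk1 (1.33 in both) were the 2 of 36 genes at an unadjusted p under 0.05 by edgeR. Over all genes, 271 of 13999 and 235 of 14424 tested were, and none passed the FDR.

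Of the fork and nucleotide supply genes, Rrm1, Tyms and Pcna varied little between libraries, and Rrm2 and Tk1 varied more. Rrm1, the large subunit of ribonucleotide reductase, stood at 95.9, 92.7, 109.7, 96.4 and 99.3 CPM in WT and at 93.5 and 115 CPM in CNS2KO (log2 fold change 0.08, SE 0.18, 95% interval -0.32 to 0.47). All 7 libraries lay close together. Rrm2, the small subunit of the same enzyme, whose level is known to follow S phase, stood at 21.1 to 78.8 CPM in WT (median 42.5) and at 43.2 and 56.4 CPM in CNS2KO. The highest WT library was 3.73 times the lowest for Rrm2 and 1.18 times for Rrm1. Pcna stood at 97.0, 90.4, 104, 103 and 138 CPM in WT and at 108 and 133 CPM in CNS2KO, inside the WT range (log2 fold change 0.18, SE 0.21). The pseudogene Pcna-ps2 has a row of its own, with a mean of 9.49 CPM. Reads without a unique alignment have a summary row apart from the genes, and how many came from near-identical copies of Pcna is not known. Tyms, thymidylate synthase, stood at 37.2 to 50.4 CPM in WT (median 48.5) and at 45.5 and 54.4 CPM in CNS2KO. Tk1, thymidine kinase, stood at 10.4 to 15.5 CPM in WT (median 12.9), at 6.19 CPM in CNS2KO 399 and at 12.0 CPM in CNS2KO 408.

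The cyclins E that start replication had low counts. Ccne2 stood at 12.2 to 15.1 CPM in WT (median 14.3) and at 7.14 and 18.0 CPM in CNS2KO 399 and 408, below and above the WT range. Ccne1 stood at 0.810 to 6.92 CPM in WT (median 3.71) and at 2.22 and 3.40 CPM in CNS2KO (log2 fold change -0.30, SE 0.85).

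**Figure D3:**
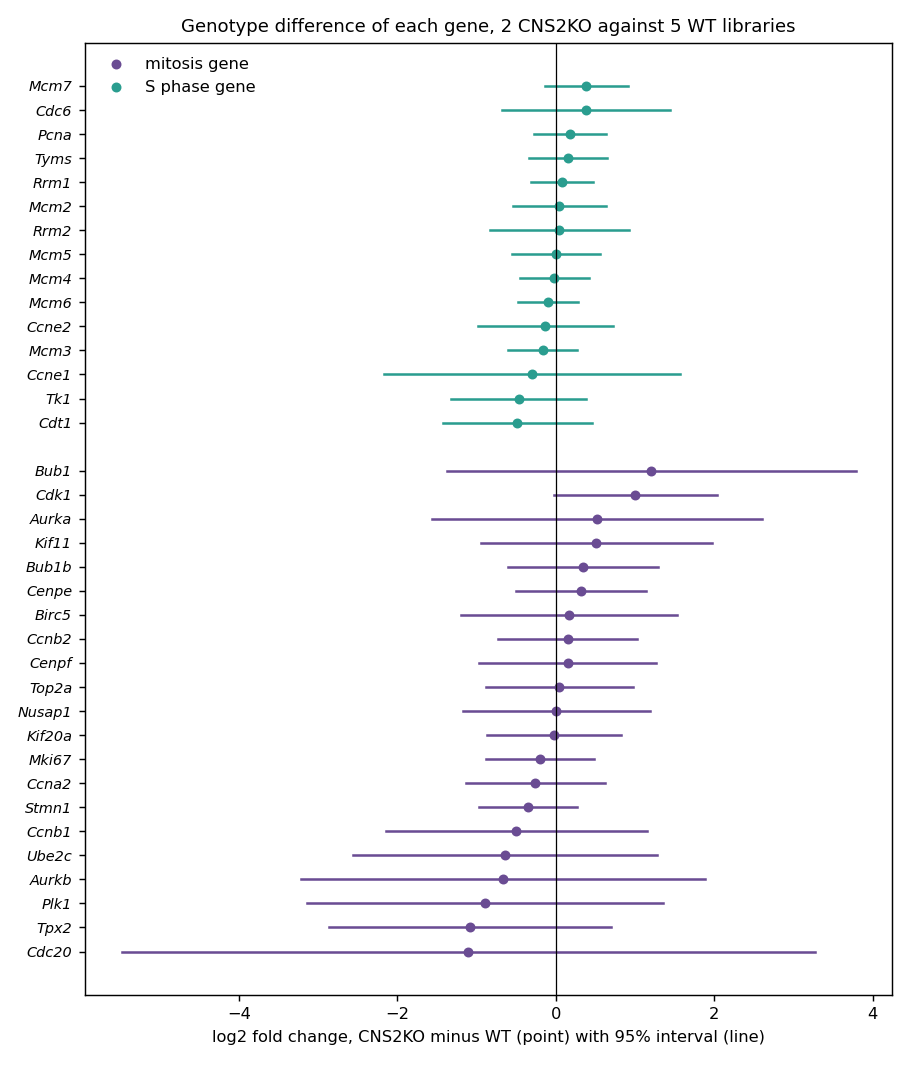
Log2 fold change of each gene, CNS2KO minus WT (point), with its 95% interval (line), for S phase genes (green, top) and mitosis genes (purple, bottom). All 36 intervals include 0, and the narrowest belong to S phase genes such as Mcm6 and Rrm1.

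In 0 of the 36 genes did both CNS2KO libraries lie outside the WT range on the same side, where 6.76% of all tested genes had that pattern (3.76% above, 3% below). Single CNS2KO libraries lay outside it in some genes of each group, and over all tested genes at the shares given in brackets. CNS2KO 399 was below every WT library in 7 of 21 mitosis genes (Ccna2, Ccnb1, Plk1, Tpx2, Stmn1, Top2a and Mki67; 19.8% of all tested genes) and above in 2 (Cdk1 and Bub1; 20.1%). CNS2KO 408 was below every WT library in 0 mitosis genes (9.48% of all tested genes) and above in 4 (Ccnb1, Aurka, Bub1b and Top2a; 12.8%). CNS2KO 408 was above CNS2KO 399 in 18 of 21 mitosis genes and in 9 of 15 S phase genes, where 54.1% of all tested genes had that order. In S phase genes CNS2KO 399 was below every WT library for Tk1 and Ccne2 and above for Mcm7. CNS2KO 408 was below for Mcm3, Mcm6 and Cdt1 and above for Tyms, Rrm1 and Ccne2. The shares over all tested genes are those given above for each library.

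The larger difference was between libraries, and in the mean over each whole group it was wider for mitosis than for S phase genes. The mean of log2(CPM + 0.5) over the mitosis genes, less that of the WT libraries, was 0.04, -0.86, 0.03, 0.23 and 0.56 in WT 398, 402, 405, 1032 and 1037 and -0.50 and 0.44 in CNS2KO 399 and 408. Neither CNS2KO library left the span of the WT libraries for the mean over all 21. The upper end of that span was WT 1037. Among WT 398, 402 and 405 alone the highest mean was 0.04, and CNS2KO 408 lay above it. Over Cdk1 and the 3 mitotic cyclins alone CNS2KO 399 left the WT span, at -0.60 against -0.18 in the lowest WT library. In CNS2KO 399, Ccnb1 (0.756 CPM) and Ccna2 (9.50 CPM) lay below every WT library. Cdk1 (19.2 CPM) lay above every WT library, and Ccnb2 (11.8 CPM) inside the WT range. Their plain sum in CNS2KO 399 was inside the WT span, at 41.3 CPM against 39.4 to 57.4 CPM. For S phase genes the mean of log2(CPM + 0.5), less that of the WT libraries, was -0.03, -0.12, 0.03, 0.02 and 0.11 in WT. It was -0.05 and 0.04 in CNS2KO, again within the WT span. The SD over WT libraries was 0.53 for mitosis genes and 0.09 for S phase genes. Lists within the S phase group went opposite ways and partly cancelled. In WT 1032 the mean was 0.35 for the MCM helicase and its loaders, -0.25 for fork and nucleotide supply genes and -0.62 for cyclins E. The WT SD of these lists was 0.22, 0.21 and 0.42. It was 0.19 for Cdk1 with the mitotic cyclins and 0.54 to 1.38 for the other lists of the mitosis group. WT 402 alone was the lowest of the 7 libraries in 10 of 21 mitosis genes and CNS2KO 399 alone in 7, and for Cdc20 these libraries and WT 1032 all had 0 reads. CNS2KO 399 is also the library with the most erythroid reads (156 CPM, above), and the part of these in its mitosis values was not tested. On a plain sum the mitosis genes made up 253 to 501 CPM in WT, 263 CPM in CNS2KO 399 and 456 CPM in CNS2KO 408, and the S phase genes 868 to 1037 CPM in WT and 998 and 974 CPM in CNS2KO. The sum of the mitosis genes was thus 0.292 to 0.483 of that of the S phase genes in WT, 0.263 in CNS2KO 399 and 0.468 in CNS2KO 408.

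**Figure D4:**
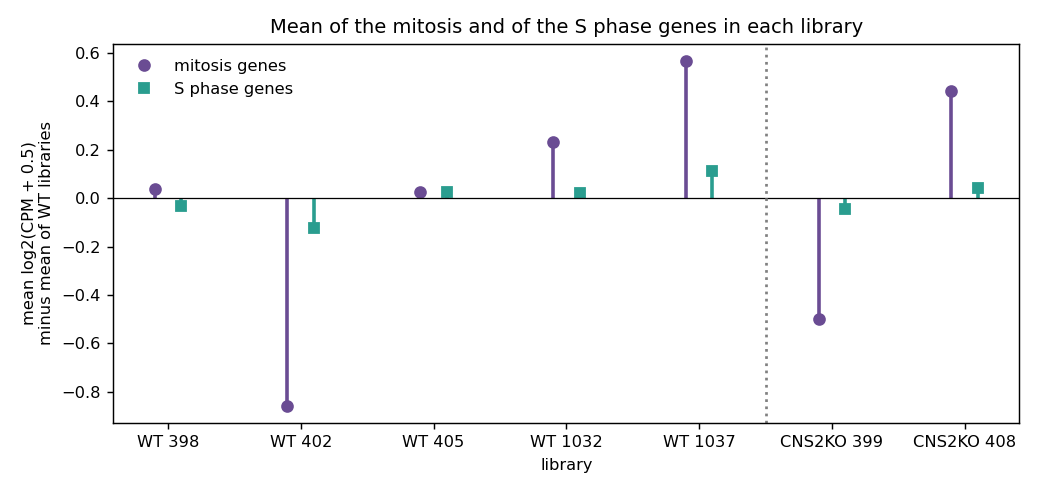
Mean of log2(CPM + 0.5) over the 21 mitosis genes (purple circles) and the 15 S phase genes (green squares) in each library, less the mean of the WT libraries. The mitosis mean runs from -0.86 in WT 402 to 0.56 in WT 1037, while the S phase mean stays between -0.12 and 0.11.

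Read depth went with this spread. Over the 7 libraries 17 of 147 read counts of mitosis genes were under 50, against 3 of 105 of S phase genes, and the mean CPM of a gene had a median of 11.1 in the mitosis group and 49.97 in the S phase group (all tested genes 16.5). The biological coefficient of variation (BCV), edgeR's measure of spread beyond counting error, had a median of 0.45 over mitosis genes, 0.23 over S phase genes and 0.34 over all tested genes. At like level the groups stood on either side of the rest: from 5 to 20 CPM the median BCV was 0.45 for 11 mitosis genes, 0.36 for 4 S phase genes and 0.41 for 3050 tested genes, and from 50 to 200 CPM it was 0.31 for Top2a and Mki67, 0.18 for 7 S phase genes and 0.20 for 3080 tested genes. These are descriptions without a test.

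**Figure D5:**
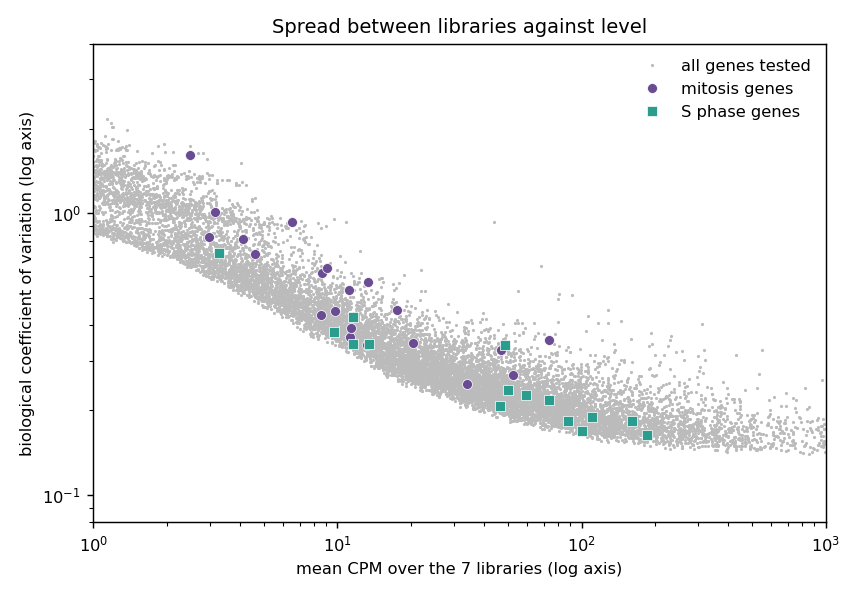
Biological coefficient of variation against mean CPM (both log axes, cropped at the lowest and highest levels) for all tested genes (grey), mitosis genes (purple circles) and S phase genes (green squares). Spread narrows as level rises, and most mitosis genes lie left of and above the S phase genes.

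Further genes of the same pathways were tested in the same fit. Of 36 other replication genes, all tested, edgeR called 0 in either direction, with 24 positive and 12 negative fold changes and a median of 0.09. Rpa1, a subunit of the single-strand DNA binding protein, had a log2 fold change of -0.07 (SE 0.15) and Orc3, of the origin recognition complex, 0.05 (SE 0.19). In 5 of the 36 both CNS2KO libraries lay above every WT library (3.76% of all tested genes) and in 1 below (3%). The 5 are Orc1, Orc4, Prim1, Rfc1 and Rpa3, the 1 is Cdc45, and all were named with their values known. Prim1, the catalytic subunit of primase, stood at 21.6, 21.4, 23.9, 23.5 and 20.9 CPM in WT and at 38.2 and 30.2 CPM in CNS2KO (log2 fold change 0.62, unadjusted p = 0.0231, adjusted p = 0.9999 by edgeR). The 2 groups did not overlap. Of 35 other mitosis genes, 34 were tested (Kif18b had too few reads) and edgeR called 0, with 18 positive and 16 negative fold changes and a median of 0.05. The condensin gene Smc4 had a log2 fold change of 0.12 (SE 0.17) and the checkpoint gene Bub3 of 0.08 (SE 0.16). In their mean of log2(CPM + 0.5), less that of WT, CNS2KO 399 lay below the WT libraries for the other mitosis genes (-0.52, lowest WT library -0.42). CNS2KO 408 lay above them for the other replication genes (0.19, highest WT library 0.11). In CNS2KO 399, 6 of the 35 other mitosis genes had 0 reads, against 4 in WT 402. The plain sum of the 35 genes there was inside the WT span, at 1883 CPM against 1698 to 2244 CPM.

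Of 17 factors that switch these promoters on or off, edgeR called 0, with 8 positive and 9 negative fold changes and a median of -0.01. Their library mean in CNS2KO 399 was also below the WT libraries (-0.50, lowest WT library -0.39). Of these factors 2 had 0 reads in CNS2KO 399, as in WT 1032. Their plain sum in CNS2KO 399, 775 CPM, lay inside the WT span of 694 to 890 CPM. Rbbp4, of the MuvB complex, had a log2 fold change of -0.07 (SE 0.19) and E2f2 of -0.13 (SE 0.22). The factors E2f1, Mybl2 and Foxm1, named with their values known, had at most 58 reads in any library. They do not stand for the whole list: E2f2 had 741 to 1154 reads per library and E2f3 57 to 154. E2f1 stood at 0 to 1.64 CPM in WT and at 0 and 1.58 CPM in CNS2KO 399 and 408. Mybl2 stood at 0.0540 to 2.95 CPM in WT and at 0.189 and 1.91 CPM in CNS2KO, and Foxm1 at 0 to 2.40 CPM in WT and at 1.09 and 2.30 CPM in CNS2KO.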

How the data were processed

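RNA was amplified by a SMARTer kit and sequenced as Ion Proton libraries, per the labels' protocols. The deposited table holds the authors' raw counts of reads, 1 row per gene symbol. STAR, BWA, edgeR and the build mm9 are listed in the submitters' processing notes without versions or roles. Which gene annotation was counted, and whether by strand, is not given in the sources used here. From the table, 5 summary rows were left out: no feature, ambiguous, too low alignment quality, not aligned and alignment not unique. Genes held 22.0 to 23.7% of each column's total. The 2 columns numbered 407 were not used. No pair of used libraries agreed within sampling noise (lowest chi-square per gene 31.6 over 21 pairs). Genes were kept by filterByExpr, scaled by TMM and compared by edgeR 4.0.16's two-sided quasi-likelihood test in R 4.3.3, with Benjamini-Hochberg adjustment over all genes at an FDR of 0.05. Each SE is the size of the log2 fold change divided by the square root of F. Alternatives used DESeq2 1.42.0 and limma 3.58.1. The test was checked on simulated counts. The members and lists were chosen with earlier results of these data known. By rule, values in every library are given for the 6 genes of highest mean CPM per group and for the extremes of fold change; of other lists, the 2 of highest mean CPM are named. Floors of 3 reads cover counting error only, as reads had no molecular identifiers.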

Additional observations from a re-analysis of the deposited data

Results flagged for a closer look

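In 38 checks of 5 WT values each (the CPM of 36 genes and the 2 group means), 2 had 1 library far from the other 4, and chance gives about 1 in 20. Mcm4 stood at 116 CPM in WT 402, against 167 CPM in the next library, WT 398. Pcna stood at 138 CPM in WT 1037, against 104 CPM in WT 405.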

How the results depend on the processing

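No paired analysis was possible because the genotypes share only the number 407, whose columns were not used. In 16 alternatives edgeR, DESeq2 or limma-voom called 0 of the 36 genes, and over all genes 0 but 8 when low-count genes were kept. With 1 library left out, the count of the 36 genes whose CNS2KO values lay outside the WT range ran from 0 to 12. It was 12 where CNS2KO 399 stood alone, which lay above the WT range in 20.1% of all tested genes and below in 19.8%. It was 10 where CNS2KO 408 stood alone, which lay above in 12.8% of all tested genes and below in 9.48%. Of the 36 genes, 15 kept the sign of their fold change in all fits. Signs turned with another scaling or filter for genes near 0: Nusap1 and Mcm5 stood at -0.0060 and -0.0064 with relative log expression, at -0.0058 and -0.0064 by DESeq2 and at -0.019 and -0.015 with a filter at 10 CPM, and Mcm5 at -0.0043 with no filter. By limma-voom Aurkb stood at 0.29, Kif20a at 0.073 and Top2a at -0.23. Against WT numbers of 3 digits only, Ube2c stood at 0.29, Kif20a at 0.41, Mki67 at 0.13 and Mcm4 at 0.074, and with a term for 1032 and 1037 at 0.28, 0.41, 0.13 and 0.074. With 1 library left out, 19 genes turned sign: Birc5 (-0.20 to 0.46), Bub1b (-0.0098 to 0.62), Ccna2 (-1.18 to 0.30), Ccnb1 (-3.64 to 0.42), Ccne1 (-0.64 to 0.12), Ccne2 (-0.96 to 0.39), Cenpf (-0.092 to 0.46), Kif20a (-0.21 to 0.29), Mcm2 (-0.084 to 0.16), Mcm4 (-0.12 to 0.030), Mcm5 (-0.16 to 0.16), Mcm6 (-0.27 to 0.048), Mcm7 (-0.030 to 0.70), Mki67 (-0.61 to 0.11), Nusap1 (-0.34 to 0.28), Plk1 (-4.54 to 0.050), Rrm1 (-0.088 to 0.22), Rrm2 (-0.17 to 0.29), Top2a (-1.27 to 0.72). The medians ran from -0.34 to 0.28 for mitosis and -0.07 to 0.04 for S phase genes. Library means moved by less than their WT SD with a pseudocount of 0.1 or 2 CPM.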

Other observations

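A list of genes for G1, the time before replication, was described in the same way. Of its 11 genes, which are cyclins, kinases, Mnat1 and Myc, edgeR called 0, with 9 positive and 2 negative fold changes and a median of 0.20. Ccnd2, cyclin D2, the most abundant in reads, stood at 647 to 993 CPM in WT (median 909) and at 1146 and 993 CPM in CNS2KO 399 and 408, so both lay above every WT library (3.76% of all tested genes), CNS2KO 408 by less than 1 CPM. Its log2 fold change was 0.28 (SE 0.17), and that of Myc 0.03 (SE 0.19).

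Of 10 CDK inhibitors and pocket proteins, 8 were tested (Cdkn2a and Cdkn2b had too few reads) and edgeR called 0, with 5 positive and 3 negative fold changes and a median of 0.06. Cdkn1b, which encodes the inhibitor p27 that holds T cells at rest, stood at 95.6 to 160 CPM in WT (median 116) and at 128 and 247 CPM in CNS2KO 399 and 408. Only CNS2KO 408 lay above the WT range, and the log2 fold change was 0.61 (SE 0.26, unadjusted p = 0.0354, adjusted p = 0.9999 by edgeR). Rbl2, the pocket protein p130, had a log2 fold change of -0.32 (SE 0.27).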
